A study of Mus musculus with 2 samples.

Results

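The 9 genes of the collagen hydroxylases were described here as they differ between day 12 and day 5 of osteoblast culture. They comprise the prolyl 4-hydroxylase alpha subunits P4ha1, P4ha2 and P4ha3, the prolyl 3-hydroxylases P3h1, P3h2 and P3h3, and the lysyl hydroxylases Plod1, Plod2 and Plod3. Every probe set annotated with 1 of these symbols was taken, which gave 13 probe sets of 45101 on the array, for 9 of 18193 named genes. The cells were CD11b-negative cells from the calvariae, the skull roof bones, of newborn mice. CD11b is a surface protein of myeloid cells. There was 1 culture at day 12 and 1 at day 5 of differentiation. Both received 50 µg/ml ascorbic acid and 10 mM β-glycerophosphate and no other treatment, and the labels give neither strain nor sex. Each RNA was hybridised to 1 Affymetrix array, so no replicate error, interval or p-value can be given, and every difference below is one between 2 arrays.

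Collagen hydroxylases are enzymes of the endoplasmic reticulum that modify procollagen chains before the triple helix closes. They use molecular oxygen and 2-oxoglutarate as substrates, and iron and ascorbate as cofactors, so the ascorbic acid in the medium is a cofactor of all of them. Prolyl 4-hydroxylation makes the triple helix stable at body temperature, and prolyl 3-hydroxylation occurs at few prolines. Lysyl hydroxylation provides sites for sugars and for the cross-links that give bone collagen its strength.

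The hydroxylases split within each enzyme family. Of the 9 genes, 4 were at least 2-fold higher at day 12, namely P3h2, P4ha1, P4ha2 and Plod1, and 0 were at least 2-fold lower. Plod2 was 1.77-fold higher, and the other 4 differed by less than 1.5-fold in either direction. The median log2 ratio of day 12 over day 5 was 0.82 over the 9 genes. Over all 10479 genes with a signal above the detection floor on at least 1 array it was -0.05, where 3.56% passed 2-fold upward and 1.73% passed it downward. By sign alone, 7 of the 9 had a higher signal at day 12, where 43.6% of all measured genes did. The floor was set per array at the 60th percentile of its signals, 44.8 at day 12 and 46.6 at day 5, and all 9 genes passed it on both arrays. A gene with several probe sets was read from the brightest. The genes were chosen with earlier results of these arrays known, so the count is a description.

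**Figure D1:**
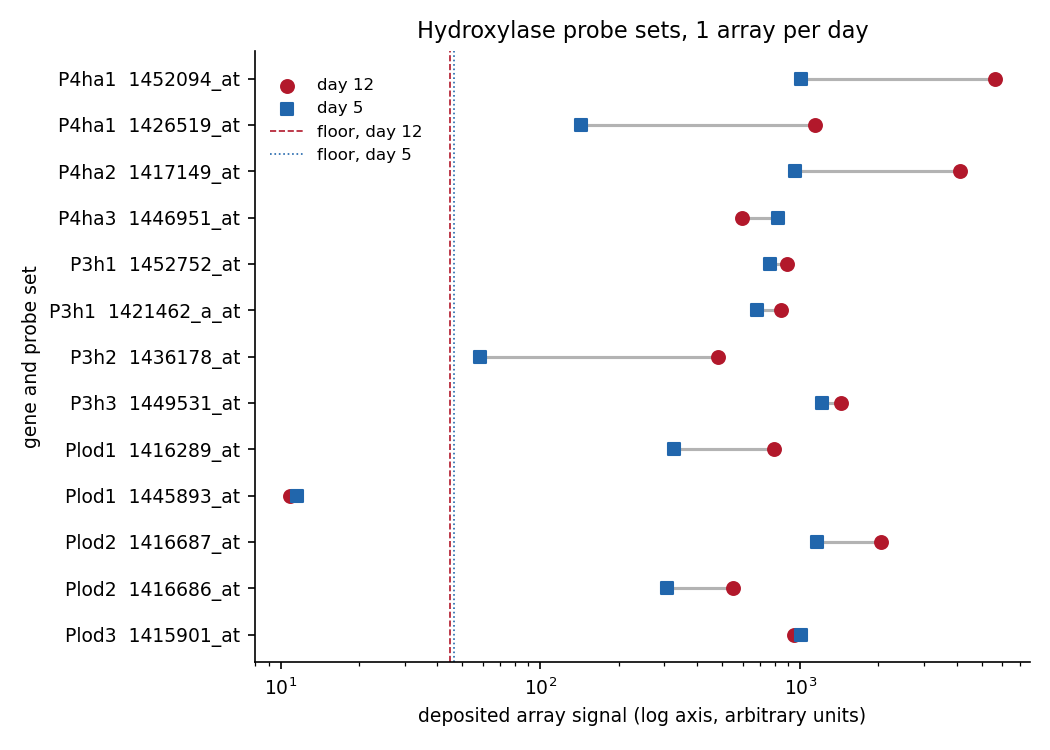
Deposited array signal (log axis, arbitrary units) of each of the 13 hydroxylase probe sets, with circles for day 12, squares for day 5 and vertical lines for the floor of each array. The circle lies far to the right of the square for both P4ha1 probe sets, P4ha2 and P3h2, the symbols nearly coincide for Plod3, and 1 Plod1 probe set lies below the floor on both days.

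P4ha1 encodes the alpha subunit of the most widely expressed prolyl 4-hydroxylase, which carries the active site. Its brightest probe set read 5595 at day 12, against 1010 at day 5, a 5.54-fold difference. The other probe set read 1139 at day 12, against 144 at day 5, a 7.93-fold difference. Both probe sets were thus higher at day 12, and their log2 ratios of 2.47 and 2.99 were 0.52 apart. In 4446 genes with at least 2 measured probe sets, the brightest pair differed by a median of 0.17 in log2 ratio and by 0.66 at the 95th percentile. The P4ha1 pair therefore differed by more than is typical, yet by far less than the difference between the days. Of the 10479 measured genes, 60 had a log2 ratio at least as high as that of P4ha1, itself included.

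P4ha2 encodes an alternative alpha subunit, known from chondrocytes, osteoblasts and endothelium. Its single probe set read 4134 at day 12, against 952 at day 5, a 4.34-fold difference (log2 ratio 2.12). P4ha3, a minor alpha subunit, read 596 at day 12, against 819 at day 5, which was 1.37-fold lower (log2 ratio -0.46). P4ha1 and P4ha2 were thus close to each other, with log2 ratios 0.35 apart. P4ha3 lay 2.93 below P4ha1 and 2.58 below P4ha2 in log2 ratio. The measured difference of P4ha3 is small beside these gaps, and 1318 of the measured genes had a ratio as low or lower.

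P3h2 had the largest ratio of the 9. The enzyme is known for its preference for basement membrane collagen IV. Its single probe set read 485 at day 12, against 58.4 at day 5, an 8.30-fold difference (log2 ratio 3.05), and 27 measured genes, itself included, had a ratio at least as high. The day 5 value was close to the floor of 46.6, so the size of this ratio depends on how dim signals are treated. With the floor at the 75th percentile it became a bound of 1.42, and with a pseudocount of 32 it was 2.51. P3h2 was at least 2-fold higher under each of 8 alternative ways of processing.

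P3h1 and P3h3 differed little between the days. P3h1 encodes the prolyl 3-hydroxylase of fibrillar collagen, which acts in a complex with Crtap and Ppib and is mutated in recessive osteogenesis imperfecta in humans. Its brighter probe set read 886 at day 12, against 765 at day 5, and the dimmer one 842 at day 12, against 684 at day 5. The log2 ratios were 0.21 and 0.30. P3h3, which in mice is required together with P3h4 for lysine hydroxylation in skin and bone collagen, read 1439 at day 12, against 1218 at day 5 (log2 ratio 0.24). Of the measured genes, 2290 had a ratio at least as high as P3h1 and 2076 one at least as high as P3h3. P3h2 exceeded P3h1 by 2.84 and P3h3 by 2.81 in log2 ratio.

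Among the lysyl hydroxylases the order of the ratios was Plod1, Plod2 and Plod3. Plod1, which hydroxylates lysines within the triple helix and is mutated in a kyphoscoliotic form of Ehlers-Danlos syndrome in humans, read 790 at day 12, against 327 at day 5, a 2.42-fold difference (log2 ratio 1.27). Its other probe set read 10.9 at day 12, against 11.6 at day 5, below the floor on both arrays, so the Plod1 ratio rests on 1 probe set. Plod2 hydroxylates lysines of the telopeptides, from which the pyridinoline cross-links of bone form, and its loss causes Bruck syndrome in humans.

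Plod2 was above its day 5 signal in both of its probe sets. In the brighter one the signal read 2051 at day 12, against 1160 at day 5, and in the dimmer one it was 551 at day 12 and 306 at day 5. The log2 ratios, 0.82 and 0.85, were 0.03 apart, the closest pair among the hydroxylases. Both stayed under the 2-fold threshold, and 492 measured genes had a ratio at least as high as the brightest probe set. Plod3, which also transfers galactose and glucose onto hydroxylysine, read 942 at day 12, against 1006 at day 5 (log2 ratio -0.09). That difference is smaller than the median gap of 0.17 between 2 probe sets of 1 gene. Plod1 exceeded Plod2 by 0.45 and Plod3 by 1.37 in log2 ratio, and Plod2 exceeded Plod3 by 0.92.

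**Figure D2:**
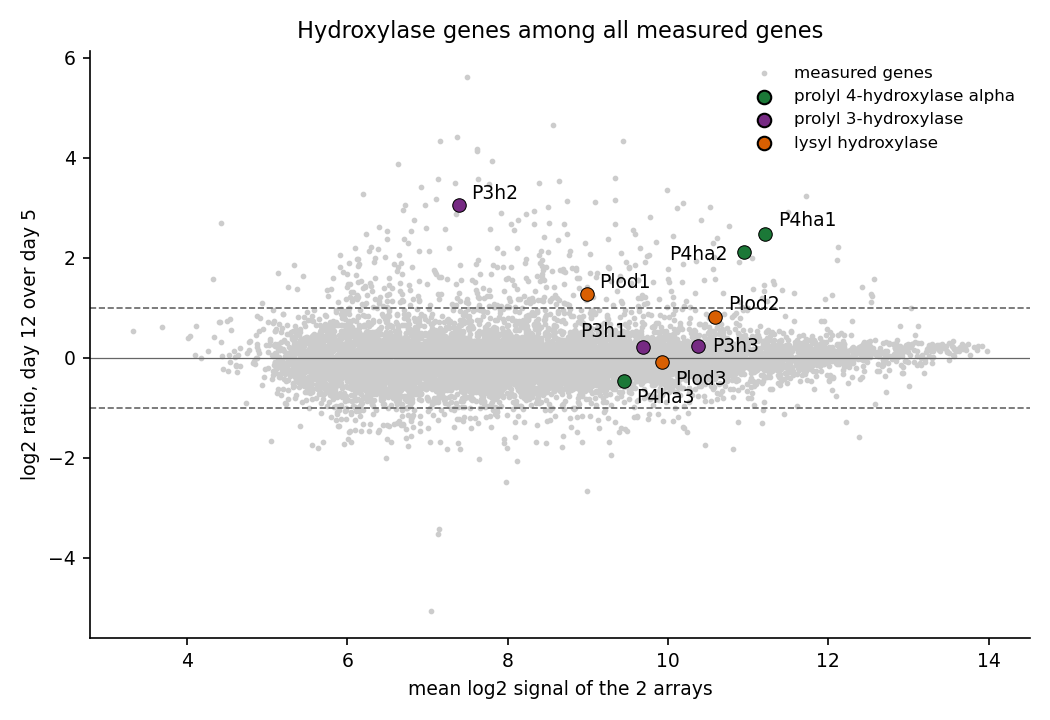
Log2 ratio of day 12 over day 5 (vertical axis) against the mean log2 signal of both arrays (horizontal axis) for the 10479 measured genes in grey and the 9 hydroxylase genes in colour by enzyme family, with dashed lines at a 2-fold difference. P4ha1 and P4ha2 lie in the bright part of the plot, where few genes pass 2-fold, P3h2 lies in the dim part, and P3h1, P3h3 and Plod3 lie within the main cloud.

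The sequences before the start sites of these genes were searched for the core letters of the hypoxia response element, because P4ha1, P4ha2 and Plod2 are known targets of the hypoxia-inducible factor HIF and hypoxia-induced genes were among those higher at day 12. The core is ACGTG or GCGTG, sought on both strands in the 250 bases before each start site in the RefSeq tables of build GRCm38.p6. Where both strands of ACGTG share letters, as in a palindrome, a match would count for each, and 0 such overlaps occurred in these genes. A window was found for 7 of the 9 genes, with 2 start sites for P3h1, and none for P3h2 and Plod2. The stretches below are those of the 3 highest genes with a window, of Plod3, which has the most matches and a ratio near 0, and of P4ha3, which has no match and the lowest ratio. Each reads 5′ to 3′ on the strand of its gene, with the core in capitals, a CACGT or CACGC being a core on the other strand, and ends before the first annotated base of the gene.
P4ha1, chr10:59323046-59323196, plus strand: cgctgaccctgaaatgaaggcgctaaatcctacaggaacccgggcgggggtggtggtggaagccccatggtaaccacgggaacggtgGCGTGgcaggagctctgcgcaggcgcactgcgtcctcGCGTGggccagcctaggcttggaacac
P4ha2, chr11:54100674-54100923, plus strand: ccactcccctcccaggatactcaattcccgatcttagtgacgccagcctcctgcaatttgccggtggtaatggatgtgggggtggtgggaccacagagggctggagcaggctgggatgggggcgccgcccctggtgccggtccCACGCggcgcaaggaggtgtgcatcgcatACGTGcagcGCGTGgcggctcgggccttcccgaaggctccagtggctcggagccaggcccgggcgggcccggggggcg
Plod1, chr4:147936777-147937026, minus strand: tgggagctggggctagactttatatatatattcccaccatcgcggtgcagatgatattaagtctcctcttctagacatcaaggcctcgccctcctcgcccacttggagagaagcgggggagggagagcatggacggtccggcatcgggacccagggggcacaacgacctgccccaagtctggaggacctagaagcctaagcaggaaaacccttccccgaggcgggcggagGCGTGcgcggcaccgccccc
Plod3, chr5:136986769-136987018, plus strand: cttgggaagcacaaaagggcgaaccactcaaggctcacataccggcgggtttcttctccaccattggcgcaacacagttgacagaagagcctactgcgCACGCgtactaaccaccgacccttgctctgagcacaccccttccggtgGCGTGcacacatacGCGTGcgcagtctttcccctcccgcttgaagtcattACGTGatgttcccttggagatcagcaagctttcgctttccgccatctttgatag
P4ha3, chr7:100285270-100285488, plus strand: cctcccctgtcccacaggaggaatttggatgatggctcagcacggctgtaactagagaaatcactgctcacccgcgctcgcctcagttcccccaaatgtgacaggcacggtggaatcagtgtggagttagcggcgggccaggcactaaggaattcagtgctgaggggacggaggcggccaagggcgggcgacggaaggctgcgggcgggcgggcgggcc

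P4ha1 and P4ha2 each held 3 matches in the full 250 bases. Those of P4ha1 began 163, 126 and 16 bases before its start site, the last of them on the other strand and beyond the stretch printed. The first annotated base of P4ha1 lies 99 bases before that start site. The last match therefore lies inside the annotated gene, and 2 lie before it. Those of P4ha2 began 107, 78 and 69 bases before its start site, the first of them on the other strand. Plod1 held 1 match, 20 bases before the start. Plod3 held 4, and each of both P3h1 windows held 2, while P4ha3 and P3h3 held 0.

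Matches of this kind are common. Of 32851 windows in the RefSeq table, 38.6% held at least 1 match, 6.58% at least 3 and 2.58% at least 4. The core holds the dinucleotide CG, and its frequency moves with base composition. The share of G and C was 69.6% in the P4ha1 window and 70.0% in that of P4ha2, against 67.2% in that of P4ha3, 55.6% in that of Plod3 and a median of 52.4% over all windows. Among the 10976 windows with a G and C share in the range of the hydroxylases, 55.4% held at least 1 match and 11.6% at least 3. That range ran from 54.8% to 70.0% with a median of 60.8%. The P4ha1 and P4ha2 windows lie at its top, so these shares are not matched to them. Plod3, with the most matches, had a log2 ratio of -0.09, and P4ha1 and P4ha2, with 3 each, had 2.47 and 2.12. P3h2, with the highest ratio, and Plod2 had no window. Whether the matches bear on the ratios was not tested.

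**Figure D3:**
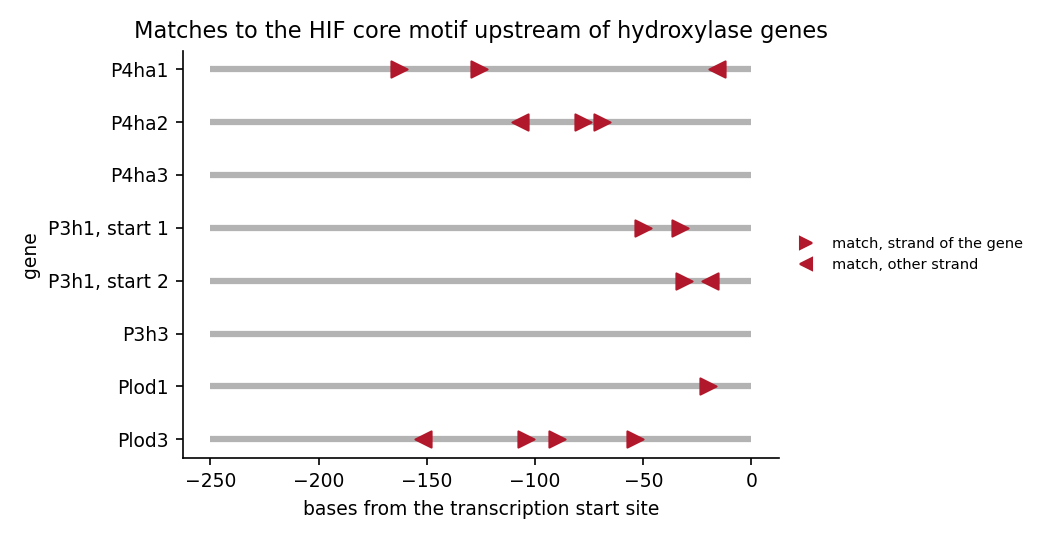
Positions of the core motif, in bases before the transcription start site (horizontal axis), in the 250-base window of each hydroxylase gene with a RefSeq window, with triangles pointing right for the strand of the gene and left for the other strand. P4ha1 and P4ha2 show 3 triangles each, Plod3 shows 4, and P4ha3 and P3h3 show 0.

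The partners with which the hydroxylases work were all within 1.5-fold between the days where measured, as were P3h1, P3h3, Plod3 and P4ha3 among the enzymes. Of 9 listed genes, 7 were measured and 0 passed 2-fold in either direction, with a median log2 ratio of 0.12 over the 7. Of all measured genes, 3.56% passed upward and 1.73% downward. P4hb, protein disulfide isomerase, is the beta subunit that keeps the prolyl 4-hydroxylase tetramer soluble, and read 7631 at day 12, against 6278 at day 5. Its log2 ratio of 0.28 was 2.19 below that of P4ha1, the subunit it pairs with. Crtap and Ppib (cyclophilin B), the partners of P3h1, had log2 ratios of 0.12 and 0.17, beside 0.21 for P3h1. P3h4, which joins the complex of P3h3 with Plod1, read 2858 at day 12, against 2405 at day 5 (log2 ratio 0.25). Serpinh1, the collagen chaperone HSP47, had a log2 ratio of 0.12 as deposited, -0.06 after quantile normalisation and -0.02 after loess. Fkbp14, a prolyl isomerase of the endoplasmic reticulum, had one of 0.04. Colgalt1, which adds galactose to hydroxylysine, had one of 0.12, and Colgalt2 lay below the floor on both arrays. Fkbp10 was not analysed here. High signals, such as those of P4hb, Ppib (7923 at day 12) and Serpinh1 (9931 at day 12), may be compressed by the array. The ratios of such partners can thus be understated.

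Most genes of the collagen chains that the enzymes act on were within 2-fold between the days. Of 11 fibrillar collagen genes, all measured, 1 passed 2-fold upward and 0 passed it downward, where 3.56% of all measured genes passed upward. Their median log2 ratio was 0.18 as deposited and -0.02 after quantile normalisation. The higher one was Col24a1, a minor fibrillar chain of bone, which read 364 at day 12, against 60.9 at day 5 (5.97-fold, but just past 2-fold under the 75th percentile floor). The chains of collagen I, the main protein of bone matrix, had log2 ratios of 0.63 for Col1a1 and 0.21 for Col1a2. The P4ha1 ratio thus exceeded that of Col1a1 by 1.84 and that of Col1a2 by 2.26. These high signals may be compressed by the array, so the ratios of the brightest collagens can be understated. Col2a1, the cartilage collagen, was 1.89-fold lower as deposited and past 2-fold after quantile normalisation and after loess, with log2 ratios of -1.04 and -1.02.

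Collagen IV genes were not higher beside P3h2. Of 6 listed, 3 were measured, and Col4a1, Col4a2 and Col4a5 had log2 ratios of -0.46, -0.42 and -1.12. The other measured probe sets of Col4a1 and Col4a5 had log2 ratios of -0.11 and -0.94. That of Col4a1 is smaller in size than the median gap of 0.17 between 2 probe sets of 1 gene. Col4a5 read 636 at day 12, against 1383 at day 5, which was 2.18-fold lower. P3h2, with 8.30-fold more signal at day 12, thus moved in the direction opposite to all 3 measured chains on these arrays. The lysyl oxidases, which convert lysines and hydroxylysines to the aldehydes of cross-links, split in their turn. Loxl4 was 4.38-fold higher (log2 ratio 2.13, but 0.58 with the 75th percentile floor), Lox had a log2 ratio of 0.27, Loxl1 one of -0.43 and Loxl3 one of -0.53. Loxl2 was read only by probe sets shared with another symbol and was left out.

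**Figure D4:**
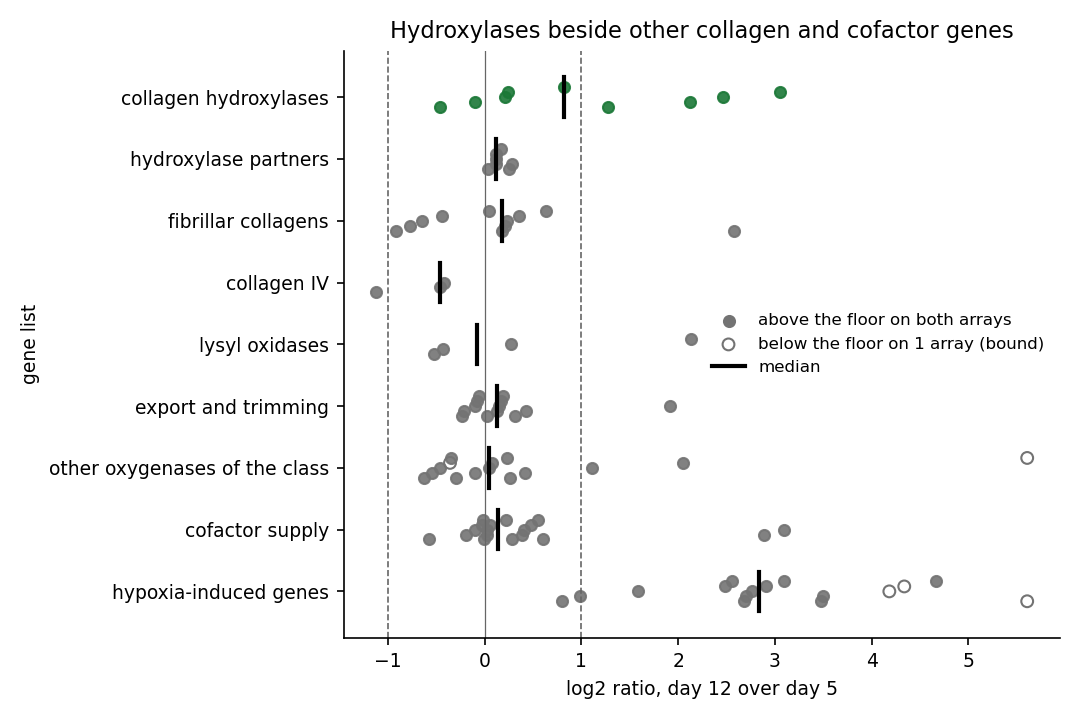
Log2 ratio of day 12 over day 5 for each measured gene of the hydroxylases (top row, coloured) and of 8 other lists, with a bar at each median, open circles for bounds and dashed lines at 2-fold. The hydroxylases spread from -0.46 to 3.05, their partners lie between 0.04 and 0.28, and the hypoxia-induced genes lie furthest right.

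Genes for the export and trimming of procollagen were mostly close to 0. Of 13 measured, 1 was at least 2-fold higher and 0 were lower by that much, where 3.56% of all measured genes passed upward. The median log2 ratio was 0.12 (-0.02 after quantile normalisation). The higher one was Creb3l1, an endoplasmic reticulum stress transducer required in mice for collagen I synthesis in osteoblasts, which read 1387 at day 12, against 368 at day 5 (3.77-fold).

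Other hydroxylases of the 2-oxoglutarate class also differed from gene to gene, with a median log2 ratio of 0.04, against 0.82 for the collagen hydroxylases. Of 15 measured, 3 passed 2-fold upward and 0 passed it downward, where 3.56% of all measured genes passed upward and 1.73% downward. Of these 3, Egln3 and Egln1 belong to the Egln family, which hydroxylates prolines of HIF alpha subunits and marks them for degradation. Egln3 read 2276 at day 12 and was under the floor on the day 5 array, which makes it at least 48.8-fold higher. Egln1 read 1764 at day 12, against 425 at day 5 (4.15-fold), and Egln2 had a log2 ratio of -0.34. The third was Jmjd6, a lysyl hydroxylase of nuclear proteins, 2.16-fold higher as deposited and just under 2-fold with a pseudocount. P4htm, a membrane-bound relative of the prolyl 4-hydroxylases, and Asph, which hydroxylates aspartate and asparagine, had log2 ratios of 0.23 and 0.04.

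Genes that supply ascorbate, iron and 2-oxoglutarate differed little apart from the glucose transporters. Of 18 measured, 2 passed 2-fold upward and 0 downward, where 3.56% of all measured genes passed upward, and the median log2 ratio was 0.14. Slc2a1 and Slc2a3, which carry glucose and also the oxidised form of ascorbate, were 8.55-fold and 7.41-fold higher. The other measured probe set of Slc2a3 was 3.18-fold higher, and with the 75th percentile floor its log2 ratio was at least 1.86, against 2.89 as deposited. Slc23a2, a transporter of ascorbate itself, read 248 at day 12, against 251 at day 5, and Slc23a1 lay below the floor on both arrays. Slc39a13, a zinc transporter whose loss leaves collagen underhydroxylated in humans, had a log2 ratio of 0.56, and Tfrc, the transferrin receptor, one of 0.60.

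Most listed genes known to be induced by hypoxia were at least 2-fold higher at day 12, as were P3h2, P4ha1, P4ha2 and Plod1. Of the hydroxylases named above as known HIF targets, P4ha1 was 5.54-fold, P4ha2 4.34-fold and Plod2 1.77-fold higher. Outside collagen modification, 14 of 16 listed genes passed 2-fold upward and their median log2 ratio was 2.84, where 3.56% of all measured genes passed. The largest were Egln3, Ndufa4l2, a mitochondrial protein (25.4-fold), Ankrd37 (at least 20.2-fold) and Car9, a carbonic anhydrase (at least 18.2-fold). With the 75th percentile floor the log2 ratios of these 4 were at least 3.65, 3.39, 2.38 and 2.22, and 14 of the 16 passed 2-fold. Egln3 and Slc2a1, both among the 16, were also counted in the lists above. The list of hypoxia-induced genes was drawn up with the results of these arrays known. Its part in the hydroxylase ratios was not tested, and oxygen in the cultures was not measured in the data used here.

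Markers of several cell types differed between the arrays as well. For comparison, the share of all measured genes past 2-fold was 3.56% upward and 1.73% downward. Of 6 osteoblast markers, 3 were analysed here, and all 3 were higher, Ibsp (bone sialoprotein) 9.41-fold (37.8-fold in its other probe set), Alpl (alkaline phosphatase) 4.90-fold and Sp7 (osterix) 3.45-fold. These 3 genes were above the floor on both days, and they do not settle which cells the cultures held. All 7 chondrocyte markers were above the floor at day 5 as well. All 9 measured of 10 myeloid markers were at least 2-fold higher as deposited, and 7 of them with a pseudocount, where Ptprc and Cd14 had log2 ratios of 0.84 and 0.75. They were led by Tyrobp (4.38-fold), Fcer1g (3.30-fold), Cd68 (2.99-fold) and C1qa (2.91-fold). The summed signal of the 10 was 11670 at day 12 and 4713 at day 5, of which Lyz2 alone read 5984 and 2649. Itgam, which encodes CD11b, lay below the floor on both arrays. Of 7 chondrocyte markers, 3 were at least 2-fold lower, Matn1 (at least 33.6-fold, log2 ratio -3.10 under the 75th percentile floor), Hapln1 (2.78-fold) and Col9a1 (2.44-fold). Their summed signal over the 7 was 12767 at day 12 and 23966 at day 5. Col2a1 read 4439 of it at day 12 and 8405 at day 5, and Col9a1 3056 and 7456. Comp read 3599 at day 12, against 3438 at day 5 (log2 ratio 0.07), while the other 6 had log2 ratios below 0. All 4 endothelial markers lay below the floor on both arrays. Of 4 measured adipocyte markers, Lpl was 2.11-fold higher and read 1560 of a summed 1756 at day 12, against 739 of 1103 at day 5. The other 3 were lower, with log2 ratios of -0.83 for Fabp4, -0.54 for Pparg and a bound of -0.75 for Adipoq, and the median of the 4 was -0.64. Adipoq was past 2-fold lower with the 50th percentile floor (-1.94) and with a pseudocount (-1.11). Of 2 measured muscle markers, Acta1 was 3.23-fold lower (under the 75th percentile floor its log2 ratio was -0.42), and the 4 listed summed to 124 at day 12 and 297 at day 5. In RNA from whole cultures, a change in the number of cells of a type and a change in RNA per cell cannot be told apart. The part of these cell types in the hydroxylase ratios was not tested.

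**Figure D5:**
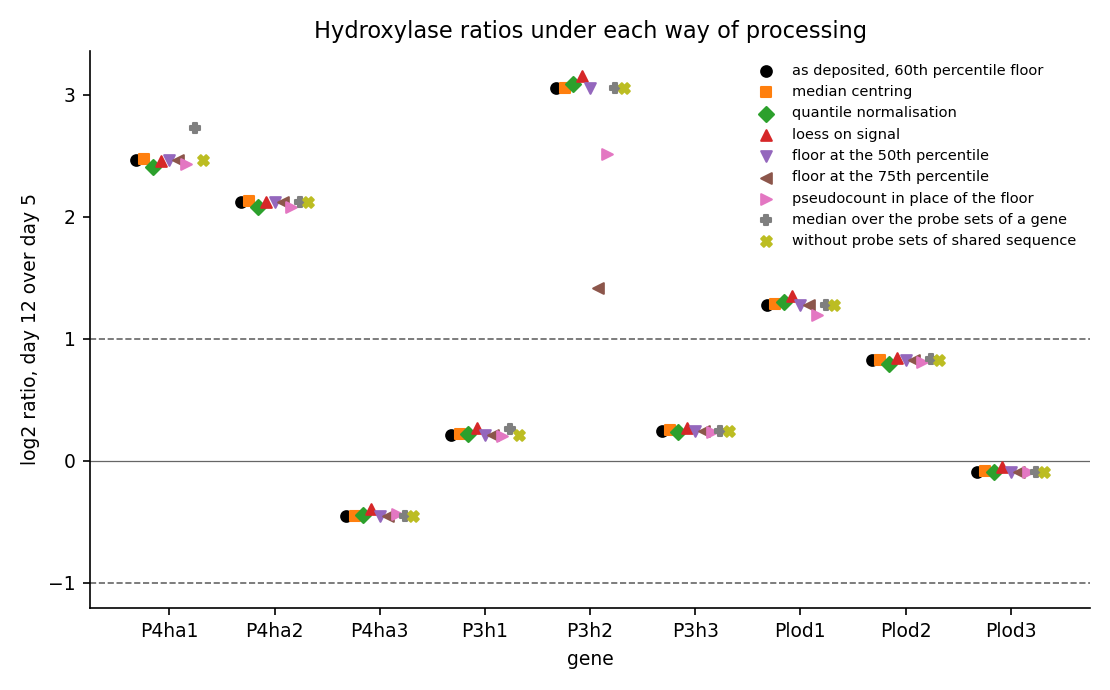
Log2 ratio of day 12 over day 5 for each of the 9 hydroxylase genes under the processing as deposited (black circles) and 8 alternatives (other symbols), with dashed lines at 2-fold. P3h2, P4ha1, P4ha2 and Plod1 stay above the upper line in all of them, and the symbols spread widely only for P3h2, between 1.42 and 3.15.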

How the data were processed

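Per the labels' protocols, biotinylated cRNA from each culture went onto its own array. GCOS 1.4 and MAS5 are the tools in the submitters' processing notes, and a genome build is not given in the sources used here. The authors deposited signal intensity on a linear scale. Its mean after trimming 2% at each end was 200.0 on both arrays, so each array was scaled to 1 target, and a change in total RNA could not be seen.

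The platform annotation gave 34945 probe sets 1 symbol, 932 several and 9160 none, leaving out 64 controls, and 34741 symbols were matched by Entrez number to the RefSeq table of GRCm38.p6. Deposited values were used without further normalisation. Lower values were set to the floor before log2 ratios were computed, and a ratio with 1 value below it is a bound. No test was possible with a single array for each day, and a ratio of 2-fold or more was counted. Sums over the marker lists add signals of probe sets of different genes and are a description only. Apart from these sums, array signals of different probe sets were not compared as levels. Precision is limited by the number of arrays, and short probes can cross-hybridise.

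The members and lists were chosen with earlier results of these data known. The text names every member, every gene of the partner and lysyl oxidase lists, in each other list the genes past 2-fold (at most 4), and the 2 genes nearest in ratio to the highest member of each family. Col1a1, Col1a2, Col2a1, Col4a1, Col4a2, Egln2, P4htm, Asph, Slc23a1, Slc23a2, Slc39a13, Tfrc, Comp, Itgam, Ptprc, Cd14, Adipoq, Pparg and Fabp4 were named after their values were seen. Alternatives were median centring, quantile normalisation, loess (span 0.3), a pseudocount of 32, other floors (75th and 50th percentile), medians over the probe sets of each gene, removal of probe sets with shared sequence, and other thresholds (3-fold and 1.5-fold). The gene-level log2 ratios with the main settings were tested on simulated arrays with planted changes. These changes were past 2-fold in size and were planted in bright genes only. Dim genes such as P3h2 were thus not covered, and the test checks the computation, not the ratios reported here. The alternatives and the motif search were not tested in this way. The software was numpy 2.4.6, pandas 2.3.3 and statsmodels 0.14.6 under Python 3.11.15.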

Additional observations from a re-analysis of the deposited data

How the results depend on the processing

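Under all 8 alternatives of scaling, floor and probe set, 4 hydroxylase genes passed 2-fold upward and 0 downward, and each of the 9 kept its sign. Their median log2 ratio lay between 0.80 and 0.84. A threshold of 1.5-fold counted 5 genes as higher, the added one being Plod2, and a threshold of 3-fold counted 3, without Plod1. None of the measured partners was past 1.5-fold as deposited or past 2-fold under any of the 8. The ratio that moved most was that of P3h2, at 1.42 with the 75th percentile floor, which raises its day 5 value, and 2.51 with a pseudocount. P4ha1 was 2.73 with the median of its probe sets. Removing those of shared sequence left out P4hb and Serpinh1. No replicate could be left out, and no paired analysis was possible because each day has 1 array. Differences between cultures were not measured, and signals near the floor, such as that of P3h2 at day 5, limit how closely a ratio is known.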

Other observations

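Of the genes measured on both days, those with log2 ratios nearest to that of P4ha1 (2.47) were Pdk1, the kinase that holds pyruvate out of the mitochondrial cycle, at 2.48, and Pfkl, a phosphofructokinase of glycolysis, also at 2.48. Pdk1 read 1818 at day 12, against 326 at day 5. Nearest to P3h2 (3.05) were Prelid2 at 3.02 and Sgms2, a sphingomyelin synthase, at 3.01. Sgms2 read 4188 at day 12, against 519 at day 5. Nearest to Plod1 (1.27) were Tgfb1, which encodes a growth factor stored in bone matrix, at 1.28, and Ms4a6d at 1.27. Likeness here is closeness of 1 ratio between 2 arrays.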
